A study of Mus musculus with 6 samples.

Results

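Astrocytes, the glial cells that clear transmitter and potassium from around synapses, were followed through 10 genes that mark them in the cortex: Gja1, Gjb6, Aqp4, Aldoc, Aldh1l1, Slc1a2, Slc1a3, Gfap, S100b and Glul. They were taken by symbol from the 54134 gene entries of 6 RNA-seq libraries of mouse prefrontal cortex, and all 10 were present and passed the filter on low counts. The 3 groups held 2 mice each, aged 6 to 8 weeks. Mice heterozygous for the Shank3 allele that the labels write as Shank3 +/∆C received GSK-LSD1, an inhibitor of the histone demethylase LSD1. Mice of the same genotype received vehicle, and wild-type mice, described as C57BL/6 x C3H, also received vehicle. Neither the genetic background of the mutants nor the dose of the inhibitor is given in the sources used here, and no wild-type mice given GSK-LSD1 were analysed here. Shank3 encodes a scaffold of excitatory synapses whose loss is tied to autism. The comparisons ask how astrocyte genes differ between mutant and wild-type mice given vehicle, and between mutants given the inhibitor and mutants given vehicle. Shank3 itself had 146 to 174 CPM (a gene's counts relative to its library's total) over the 6 libraries and Kdm1a, which encodes LSD1, 86.3 to 102 CPM, with no difference that passed in any comparison. The counts are per gene, so they do not show which Shank3 exons were transcribed and do not check the genotype labels.

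Astrocytes form a network joined by gap junctions, wrap synapses and blood vessels, and take up the glutamate that neurons release. Glutamate enters through the transporters Slc1a2 (GLT-1) and Slc1a3 (GLAST), is turned into glutamine by Glul, and returns to neurons in that form. The end feet on vessels carry the water channel Aqp4, and Gfap, the filament protein of astrocytes, is known to rise when these cells react to injury. RNA of bulk tissue was measured, so more astrocytes and more RNA per astrocyte cannot be told apart.

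The libraries held 14133834 to 28646960 counted reads, at which 3 counts, taken as the floor, correspond to 0.105 to 0.212 CPM, a limit that covers counting error only. Members had between 388 and 88828 reads per library, so none was near that floor. Levels are CPM after TMM scaling, an adjustment of library totals by edgeR. The test was edgeR's quasi-likelihood test fitted to 18705 genes in all 6 libraries, with p-values adjusted over all of them and a threshold of 0.05. In Shank3 vehicle against wild type 0.278% of genes passed as higher and 0.994% as lower. In each direction, 23.1% of genes had no overlap between these groups. In GSK-LSD1 against Shank3 vehicle the shares that passed were 0.102% higher and 0.00535% lower, and groups did not overlap for 17.0% and 16.6%. In GSK-LSD1 against wild type they were 0.636% and 1.99%, with no overlap for 23.5% and 22.4%. At an unadjusted p under 0.05 stood 2628, 1066 and 2941 of the 18705 genes in these comparisons, in that order. Scaling moved the balance of calls: 52 genes passed as higher and 186 as lower in Shank3 vehicle against wild type, but 15 and 20 with library size scaling and 45 and 96 with upper quartile scaling. In GSK-LSD1 against wild type the split was 119 and 372, and 111 and 142 with library size scaling.

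All 10 astrocyte genes had positive log2 fold changes in Shank3 vehicle mice against wild type, beside 9786 of all 18705 tested genes. In each of the 10 both Shank3 vehicle libraries lay above both wild-type libraries, which held for 23.1% of all tested genes. Gja1, Aqp4 and S100b rose (3 of 10), against 0.278% of all genes, and 0 of 10 fell. The median log2 fold change of the 10 was 0.44, beside 0.02 over all tested genes. In GSK-LSD1 mice against wild type Gja1, Aqp4, Aldoc and Aldh1l1 rose (4 of 10, against 0.636% of all genes) and 0 fell, with a median of 0.49 beside 0.02. In GSK-LSD1 mice against Shank3 vehicle mice 0 of 10 passed edgeR's test, at the unadjusted threshold as well, and 0 passed with DESeq2 or limma-voom. That median was 0.04, beside a median of 0.00 to 2 decimals over all genes. The first 2 of these comparisons share the wild-type libraries, and the last shares its libraries with both, so their values are not independent of each other.

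The wild-type libraries differed from each other in these genes. Each of the 10 was lowest in wild-type library 1. With each gene's log2 level centred on its mean over the 6 libraries, the average over the 10 was 0.08 and 0.26 in the GSK-LSD1 libraries, 0.11 and 0.22 for Shank3 vehicle, and -0.50 and -0.17 for wild type. Without wild-type library 1, the Shank3 vehicle comparison kept 10 of 10 log2 fold changes positive, with a median of 0.35, but 0 passed. At the unadjusted threshold 5 of 10 passed there, and 6 genes in all passed over the whole table. The count was also 0 without Shank3 vehicle library 1 and without Shank3 vehicle library 2. In GSK-LSD1 against wild type the median without wild-type library 1 was 0.38 and 0 passed, as was the case without GSK-LSD1 library 2.

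**Figure D1:**
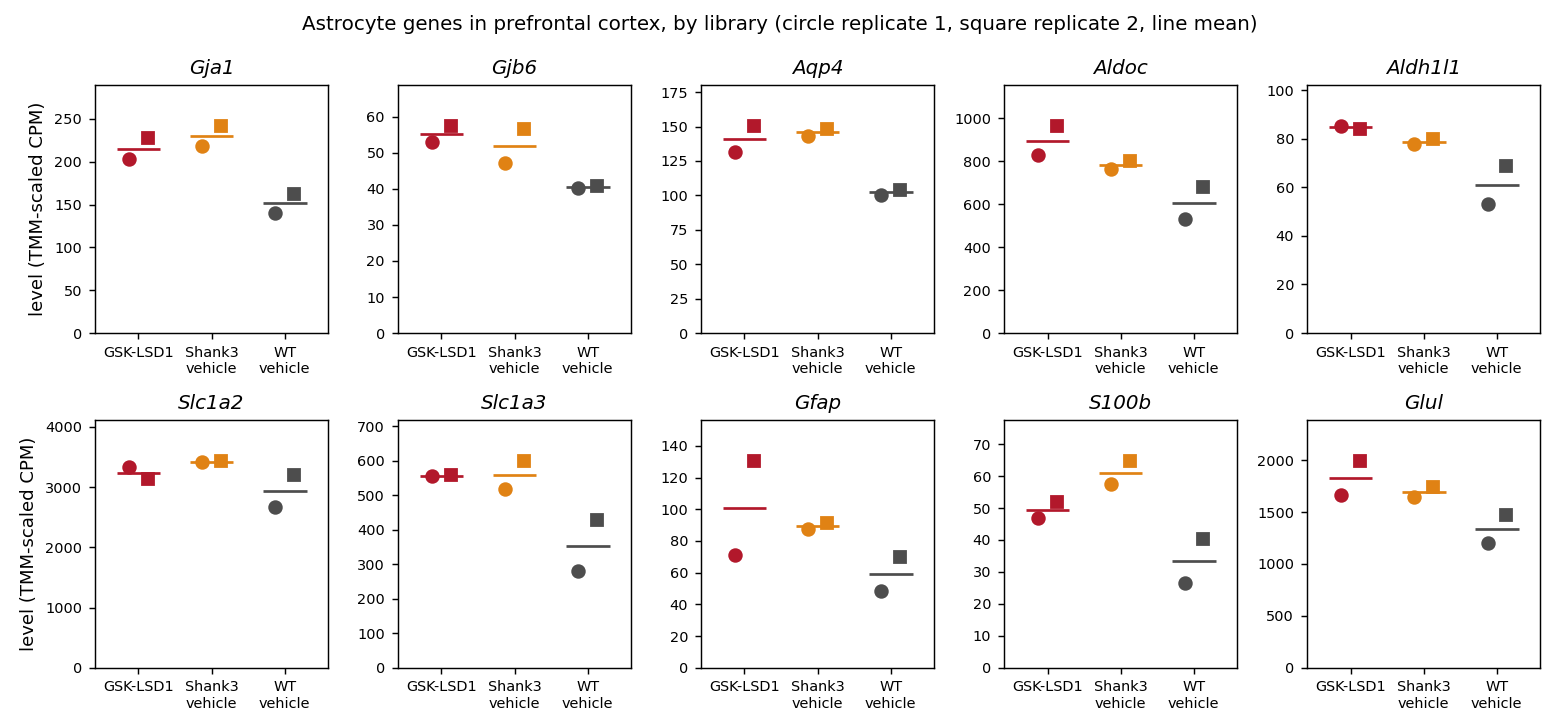
Level of each astrocyte gene (vertical axis, TMM-scaled CPM, from 0) in the GSK-LSD1, Shank3 vehicle and WT vehicle groups (horizontal axis). Circles are replicate 1, squares replicate 2 and lines group means. Both Shank3 vehicle libraries lie above both wild-type libraries in 10 of 10 panels, against 23.1% of all tested genes. Both GSK-LSD1 libraries do so in 9 of 10, against 23.5%, Slc1a2 being the exception. Gfap has a wide gap between its GSK-LSD1 libraries, at 71.3 and 130.4 CPM.

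Per kilobase of exon, the 10 genes spanned a wide range of levels. Averaged over the 6 libraries, Glul was highest at 487 CPM per kb, above 99.9% of tested genes with annotation. Slc1a2 followed at 244 and Aldoc at 234 CPM per kb, and their library values overlapped. Slc1a3 lay at 57.4 and S100b at 32.3 CPM per kb, each set apart from the next higher gene within every library. The other 5 lay close together, Aqp4 at 20.8, Gfap at 19.7, Gja1 at 19.4, Gjb6 at 18.4 and Aldh1l1 at 16.6 CPM per kb, and neighbours in that order overlapped across libraries. Every member stood above at least 82.5% of tested genes on this scale.

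**Figure D2:**
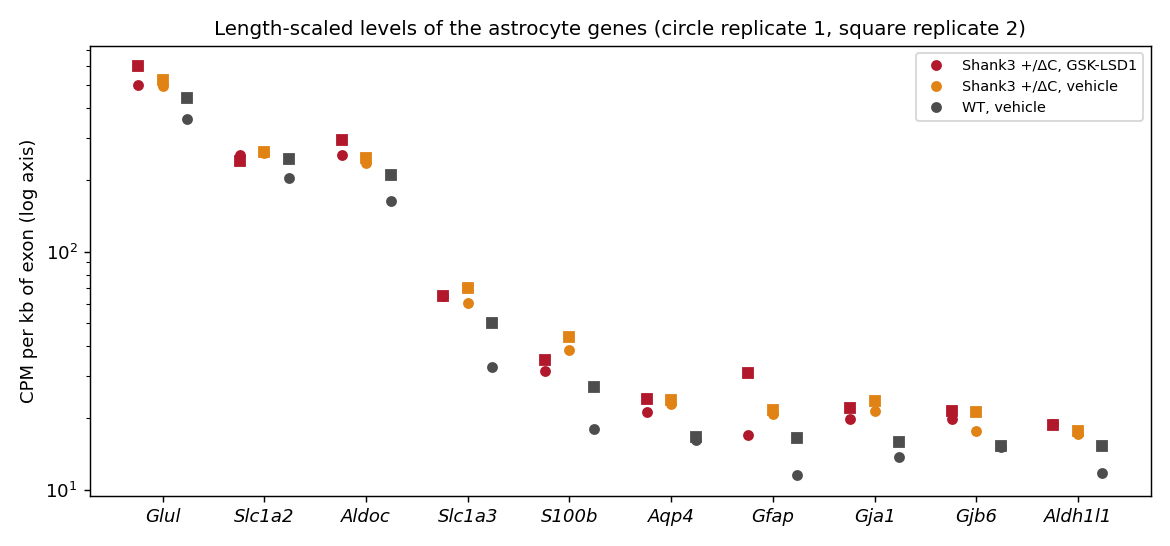
Level per kilobase of exon (vertical log axis, CPM per kb) of each astrocyte gene, ordered by its mean over 6 libraries. Colours are the groups, circles replicate 1 and squares replicate 2; Glul, Slc1a2 and Aldoc form the upper level and Aqp4, Gfap, Gja1, Gjb6 and Aldh1l1 the lower one, near 16.6 to 20.8 CPM per kb.

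Promoters of 3 members that show different patterns are printed from RefSeq (GRCm38.p6), 300 bases each, from 250 before to 50 after the gene start, on the strand of the gene. Gja1 rose in both mutant groups, S100b had the largest fold change in Shank3 vehicle against wild type, and Gfap was the least certain. Capitals mark the AP-1 motif TGANTCA in Gja1, the CCAAT box (CCAAT, or ATTGG on the other strand) in S100b and the STAT motif TTCNNNGAA in Gfap.
Gja1 (chr10:56377050-56377349, plus): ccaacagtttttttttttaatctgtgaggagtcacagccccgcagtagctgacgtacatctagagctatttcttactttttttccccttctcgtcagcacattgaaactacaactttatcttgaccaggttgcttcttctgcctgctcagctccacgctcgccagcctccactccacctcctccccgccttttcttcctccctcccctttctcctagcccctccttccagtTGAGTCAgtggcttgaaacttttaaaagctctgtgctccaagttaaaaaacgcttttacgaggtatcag
S100b (chr10:76253586-76253885, plus): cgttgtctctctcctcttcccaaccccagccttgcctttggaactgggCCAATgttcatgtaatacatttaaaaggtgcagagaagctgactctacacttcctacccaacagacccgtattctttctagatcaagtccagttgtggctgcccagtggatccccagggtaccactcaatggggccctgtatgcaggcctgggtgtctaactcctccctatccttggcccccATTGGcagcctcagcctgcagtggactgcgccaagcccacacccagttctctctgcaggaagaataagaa
Gfap (chr11:102897151-102897450, minus): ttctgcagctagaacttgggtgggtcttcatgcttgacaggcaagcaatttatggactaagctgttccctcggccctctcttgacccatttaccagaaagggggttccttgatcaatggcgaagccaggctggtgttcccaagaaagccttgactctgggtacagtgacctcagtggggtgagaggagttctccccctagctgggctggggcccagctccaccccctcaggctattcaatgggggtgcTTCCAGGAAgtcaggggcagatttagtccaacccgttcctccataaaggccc
The Gja1 match begins 19 bases before the start, the S100b matches 202 and 20 bases before it, and the Gfap match 2 bases before it. The RefSeq start of Gfap lies inside the gene span given below, which follows GENCODE. RefSeq's table held 10 windows for 9 of the members and none for Aqp4. Searched on both strands, the AP-1 motif was in 1 of these 10 windows and in 7.8% of all 32851 promoter windows, and the STAT motif in 3 of 10 (Aldoc, Slc1a3 and Gfap) and 8.3% of all. The CCAAT box was in 4 of 10 (Glul, Aldh1l1, S100b and Slc1a3) and 37.4% of all, and TATAAA in 1 of 10 (Slc1a3) and 13.6% of all. No motif was shared by Gja1, S100b and Gfap, and a match describes letters only.

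The channels of the astrocyte membrane include 2 of the 3 genes that rose in Shank3 vehicle. Gja1 encodes connexin 43, the main gap junction protein of astrocytes, and lies on chromosome 10 from 56377330 to 56402513 (plus strand, GRCm38). It had 203 and 227 CPM with GSK-LSD1, 218.6 and 241 CPM in Shank3 vehicle, and 140.2 and 163 CPM in wild type. All 4 Shank3 +/∆C libraries stood above both wild-type libraries, and the mutant groups overlapped each other. Its log2 fold change was 0.60 ± 0.11 (SE, 2 libraries a group) in Shank3 vehicle against wild type (edgeR adjusted p = 0.0222) and 0.50 ± 0.11 with GSK-LSD1 against wild type (adjusted p = 0.0233). Between GSK-LSD1 and Shank3 vehicle it was -0.10, with a 95% interval from -0.33 to 0.14.

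Gjb6 encodes connexin 30, the other connexin of astrocytes (chromosome 14, 57123303 to 57133611, minus strand). It had 53.1 and 57.4 CPM with GSK-LSD1, 47.2 and 56.6 CPM in Shank3 vehicle, and 40.4 and 40.9 CPM in wild type. Both wild-type libraries were lower than the other 4 and close to each other. The log2 fold changes of 0.35 ± 0.12 for Shank3 vehicle (adjusted p = 0.156) and 0.44 ± 0.12 for GSK-LSD1 (adjusted p = 0.0514) against wild type did not pass edgeR's test. Per kilobase, the ratio of Gja1 to Gjb6 was 0.997 and 1.03 for the GSK-LSD1 mice, 1.21 and 1.11 for Shank3 vehicle mice, and 0.905 and 1.04 for wild-type mice.

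Aqp4, the water channel of the end feet (chromosome 18, 15389496 to 15410982, minus strand), had 131 and 150.2 CPM with GSK-LSD1, 143 and 148.5 CPM in Shank3 vehicle, and 100.6 and 104 CPM in wild type. The spread within wild type was small beside its distance to the other groups. The log2 fold change was 0.51 ± 0.11 in Shank3 vehicle against wild type (edgeR adjusted p = 0.0302) and 0.46 ± 0.11 with GSK-LSD1 against wild type (adjusted p = 0.0266). GSK-LSD1 differed from Shank3 vehicle by -0.05, with a 95% interval from -0.27 to 0.17.

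Of the 3 genes of glutamate uptake and conversion, 0 passed in any comparison in the edgeR fit reported here. Other settings on all 6 libraries could differ. Slc1a3 passed in both mutant groups against wild type with no filter on low counts and with the replicate number as a block. Glul passed with GSK-LSD1 against wild type by DESeq2, by limma-voom and with no filter on low counts. Slc1a2, the main glutamate transporter of the forebrain (chromosome 2, 102658659 to 102790784, plus strand), had 3341 and 3143 CPM with GSK-LSD1, 3417 and 3434 CPM in Shank3 vehicle, and 2672 and 3210 CPM in wild type. The GSK-LSD1 libraries lay on either side of wild-type library 2, so those groups overlapped. Its log2 fold changes were the smallest of the 10 against wild type, at 0.22 ± 0.13 for Shank3 vehicle (edgeR adjusted p = 0.463) and 0.14 ± 0.13 for GSK-LSD1 (adjusted p = 0.657).

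Slc1a3, the second glutamate transporter of astrocytes (chromosome 15, 8634124 to 8710764, minus strand), had 555 and 558 CPM with GSK-LSD1, 518 and 599.6 CPM in Shank3 vehicle, and 279.5 and 429 CPM in wild type. Every mutant library stood above both wild-type libraries, which were themselves far apart. The log2 fold change was 0.65 ± 0.17 against wild type in both mutant groups (edgeR adjusted p = 0.102 for Shank3 vehicle and 0.0822 for GSK-LSD1), and neither passed. In both comparisons it was 0.37 without wild-type library 1 and 0.99 without wild-type library 2, and Slc1a3 passed without wild-type library 2 and with no filter on low counts. Per kilobase, the ratio of Slc1a2 to Slc1a3 was 3.91 and 3.66 for the GSK-LSD1 mice, 4.29 and 3.72 for Shank3 vehicle mice, and 6.21 and 4.86 for wild-type mice. Both wild-type ratios were above all 4 mutant ratios, the nearest being 4.86 in wild-type library 2 and 4.29 in Shank3 vehicle library 1. How often other gene pairs are set apart in this way was not tested.

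Glul, which makes glutamine from glutamate and ammonia (chromosome 1, 153899944 to 153909723, plus strand), had 1663 and 1991 CPM with GSK-LSD1, 1644 and 1741 CPM in Shank3 vehicle, and 1199 and 1473 CPM in wild type. The mutant libraries were all above the wild-type ones. Its log2 fold changes were 0.34 ± 0.13 for Shank3 vehicle (edgeR adjusted p = 0.231) and 0.45 ± 0.13 for GSK-LSD1 (adjusted p = 0.078) against wild type, and neither passed. Teddm2 shares 3.49% of the exonic bases of Glul and had at most 112 reads in a library.

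Among the metabolic enzymes, Aldoc is the aldolase of glycolysis that astrocytes use (chromosome 11, 78322968 to 78327781, plus strand). It had 830 and 963.5 CPM with GSK-LSD1, 765 and 803 CPM in Shank3 vehicle, and 533 and 682 CPM in wild type. The 3 groups did not overlap, and the GSK-LSD1 libraries were the highest. Against wild type the log2 fold change was 0.56 ± 0.13 for GSK-LSD1 (edgeR adjusted p = 0.026), which passed, and 0.37 ± 0.13 for Shank3 vehicle (adjusted p = 0.183), which did not. The difference between GSK-LSD1 and Shank3 vehicle, 0.19 with a 95% interval from -0.08 to 0.46, did not pass either (adjusted p = 0.969), so the mutant groups are not shown to differ.

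Aldh1l1, an enzyme of folate metabolism widely used to mark astrocytes (chromosome 6, 90486427 to 90600203, plus strand), had 85.2 and 84.2 CPM with GSK-LSD1, 77.7 and 80.0 CPM in Shank3 vehicle, and 53.3 and 68.7 CPM in wild type. Here too the groups did not overlap, and the largest spread was within wild type. It passed for GSK-LSD1 against wild type (log2 fold change 0.47 ± 0.12, edgeR adjusted p = 0.0413) and not for Shank3 vehicle (0.37 ± 0.12, adjusted p = 0.144). Without wild-type library 1 the GSK-LSD1 value was 0.30. An antisense transcript, Gm15756, shares 11.05% of the exonic bases of Aldh1l1 but had at most 2 reads in a library.

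Gfap and S100b, a filament and a calcium-binding protein, differed in the spread between their libraries. Gfap (chromosome 11, 102887336 to 102900912, minus strand) had 71.3 and 130.4 CPM with GSK-LSD1, 87.7 and 91.4 CPM in Shank3 vehicle, and 48.5 and 69.7 CPM in wild type. GSK-LSD1 library 2 was the highest of all, and library 1 of that group stood only just above wild-type library 2. With log2 fold changes of 0.59 ± 0.37 for Shank3 vehicle (edgeR adjusted p = 0.601) and 0.76 ± 0.37 for GSK-LSD1 (adjusted p = 0.458) against wild type it did not pass, and its standard error was the largest of the 10. Without GSK-LSD1 library 1 the value for GSK-LSD1 was 1.13 and passed (edgeR adjusted p = 0.00175), and without library 2 it was 0.26 and did not (adjusted p = 0.636). Leaving out either GSK-LSD1 library also made Gfap pass in Shank3 vehicle against wild type, at an unmoved value of 0.59 (adjusted p = 0.0273 without library 1 and 0.0257 without library 2).

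S100b, which mature oligodendrocytes also express (chromosome 10, 76253853 to 76261159, plus strand), had 46.8 and 51.8 CPM with GSK-LSD1, 57.4 and 64.7 CPM in Shank3 vehicle, and 26.6 and 40.2 CPM in wild type. The 3 groups did not overlap, with Shank3 vehicle on top and GSK-LSD1 between it and wild type. In Shank3 vehicle against wild type S100b had the largest log2 fold change of the 10, 0.86 ± 0.16 (edgeR adjusted p = 0.0314). With GSK-LSD1 against wild type it was 0.55 ± 0.16 (adjusted p = 0.114), and between GSK-LSD1 and Shank3 vehicle -0.31 with a 95% interval from -0.66 to 0.04 (adjusted p = 0.924). The last 2 did not pass.

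**Figure D3:**
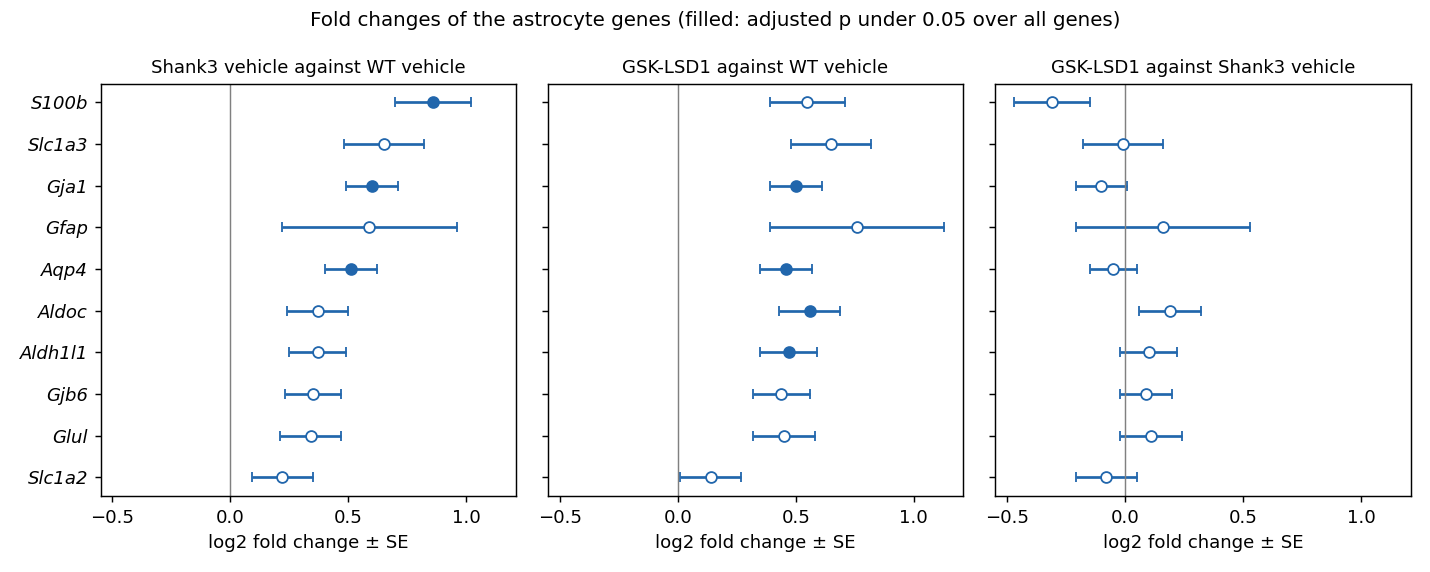
Log2 fold change (horizontal axis) of each astrocyte gene in 3 comparisons, with bars of 1 SE and filled points where edgeR's adjusted p was under 0.05. Values against wild type run from 0.14 to 0.86 and are all positive, while those between GSK-LSD1 and Shank3 vehicle run from -0.31 to 0.19.

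The inhibitor comparison can be read by its intervals. For 9 of the 10 genes the 95% interval of GSK-LSD1 minus Shank3 vehicle lay between -0.66 and 0.46 on the log2 scale, and for Gfap it ran from -0.87 to 1.20. Of the 10 differences 5 were positive, beside 9330 of all 18705 tested genes. The groups did not overlap upward in Aldoc and Aldh1l1 (2 of 10, against 17.0% of all genes) and downward in Slc1a2 and S100b (2 of 10, against 16.6%). A change of the 10 genes by the inhibitor was thus not detectable with 2 mice a group, and the intervals give the sizes that these data allow.

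The 10 genes varied together across the libraries. The Pearson correlation of each gene's log2 CPM with the mean of the other 9 over the 6 libraries ran from 0.81 for Slc1a2 to 0.97 for Gja1 and Glul. These points share the library, its depth and its makeup, so the value describes these 6 libraries. Outside the list, among 9260 genes with a mean of at least 10 CPM, the 5 most like the average of the 10 were Serpine2 (r = 0.999), Rassf2 (0.995), Nacc2 and Commd6 (0.994 each) and Acss1 (0.993). Serpine2, a secreted protease inhibitor, had 132 and 149.6 CPM with GSK-LSD1, 134 and 142 CPM in Shank3 vehicle, and 94.4 and 114 CPM in wild type.

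Other genes of astrocyte identity were followed in a list of 35. It was drawn up for this tissue with earlier results of these data known, so it is not independent support for the 10. In Shank3 vehicle against wild type 33 of 35 log2 fold changes were positive, beside 9786 of all 18705 tested genes. In GSK-LSD1 against wild type 31 of 35 were positive, beside 9848 of 18705. The medians of the 35 were 0.38 and 0.41. In GSK-LSD1 against Shank3 vehicle 20 of 35 were positive, beside 9330 of 18705, with a median of 0.03. Of the 35 only Slc39a12, a zinc transporter, rose in Shank3 vehicle by edgeR's test (0.48 ± 0.11, edgeR adjusted p = 0.0445). That count depended on the tool and setting. It was 10 with DESeq2, 1 with limma-voom, 5 with the replicate number as a block and 0 with library size scaling. Etnppl (0.86 ± 0.19, adjusted p = 0.02455) and Apoe, the brain's main lipid carrier (0.59 ± 0.13, adjusted p = 0.02525), rose with GSK-LSD1 against wild type. Apoe averaged 1098 ± 36.0 CPM with GSK-LSD1 and 731.6 ± 151 CPM in wild type (SD, 2 libraries each). None of the 35 fell in either comparison, and none passed in GSK-LSD1 against Shank3 vehicle. At an unadjusted p under 0.05 stood 3 of 35 there, beside 1066 of all 18705 tested genes.

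Of 17 measured genes of the wider glutamate and glutamine cycle 0 passed in Shank3 vehicle against wild type, with a median of -0.04. At an unadjusted p under 0.05 stood 6 of the 17, beside 2628 of all 18705 tested genes. With GSK-LSD1 against wild type 1 rose, against 0.636% of all genes, and the list median was 0.01. That gene was Slc7a11, the cystine and glutamate exchanger, at 141.7 ± 15.6 CPM with GSK-LSD1 and 94.2 ± 14.3 CPM in wild type (0.59 ± 0.12, edgeR adjusted p = 0.0154). In Shank3 vehicle Slc7a11 had 124.7 ± 4.72 CPM. Slc17a7, the vesicular glutamate transporter of cortical excitatory neurons, had log2 fold changes of -0.41 ± 0.13 (adjusted p = 0.134) for Shank3 vehicle and -0.47 ± 0.13 (adjusted p = 0.0626) for GSK-LSD1 against wild type. The glutamine transporter Slc38a3 had 0.44 ± 0.12 with GSK-LSD1 against wild type (adjusted p = 0.0654).

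The 13 measured genes of the connexin and pannexin list other than the members had median log2 fold changes of 0.13 in Shank3 vehicle against wild type, -0.17 in GSK-LSD1 against Shank3 vehicle and 0.13 in GSK-LSD1 against wild type. Gjb1, a connexin of oligodendrocytes, averaged 8.91 ± 5.04 CPM with GSK-LSD1, 11.5 ± 0.311 CPM in Shank3 vehicle and 6.17 ± 1.06 CPM in wild type. Its log2 fold change in Shank3 vehicle against wild type, 0.91 ± 0.35, did not pass (edgeR adjusted p = 0.2775).

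Of 18 end foot and potassium buffering genes 0 passed in any comparison by edgeR's test. In Shank3 vehicle against wild type, GSK-LSD1 against Shank3 vehicle and GSK-LSD1 against wild type 9, 0 and 8 were under 0.05 unadjusted. Over all 18705 tested genes these counts were 2628, 1066 and 2941. The list medians were 0.12, -0.01 and 0.15 in that order. The potassium channels Kcnj16 (0.58 ± 0.16, adjusted p = 0.0806) and Kcnj10 (0.65 ± 0.17, adjusted p = 0.109) were positive in Shank3 vehicle against wild type. Agrn, a matrix proteoglycan, was at -0.47 ± 0.13 (adjusted p = 0.0758).

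Among 26 measured genes of glycolysis and lactate transport 0 passed in Shank3 vehicle against wild type. At an unadjusted p under 0.05 stood 3 of them, beside 2628 of all 18705 tested genes. With GSK-LSD1 against wild type 2 rose and 1 fell, against 0.636% and 1.99% of all genes. The lactate transporter Slc16a3 rose (1.17 ± 0.22, edgeR adjusted p = 0.0105), as did the glycogen phosphorylase Pygb (0.45 ± 0.11, adjusted p = 0.0373). The transporter Slc16a7 fell (-0.45 ± 0.11, adjusted p = 0.0337). Of 26 folate enzymes and aldehyde dehydrogenases Aldh1a1 rose in Shank3 vehicle (0.91 ± 0.17, adjusted p = 0.0222), as did 0.278% of all genes. Aldh1a1 (0.92 ± 0.17, adjusted p = 0.0104), Aldh2 (0.65 ± 0.12, adjusted p = 0.0105) and Gldc, of the glycine cleavage system (0.78 ± 0.16, adjusted p = 0.0191), rose with GSK-LSD1 against wild type, and 0 fell in either comparison. In GSK-LSD1 against Shank3 vehicle 0 of either list passed. At an unadjusted p under 0.05 stood 2 and 3, beside 1066 of all 18705 tested genes.

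Of 28 measured genes that reactive astrocytes are known to raise, 0 rose in Shank3 vehicle against wild type and 1 fell. Over all genes these shares were 0.278% and 0.994%. The gene that fell was Ptgs2, the inducible cyclooxygenase that cortical neurons also express (-0.70 ± 0.16, edgeR adjusted p = 0.0436), with a list median of 0.07. With GSK-LSD1 against wild type 3 of 28 rose and 0 fell, against 0.636% and 1.99% of all genes. The list median was 0.32, beside 0.02 over all tested genes. Those that rose were the filament protein Vim (0.61 ± 0.15, adjusted p = 0.0402), S100a10 (0.55 ± 0.13, adjusted p = 0.0305) and the complement inhibitor Serping1 (1.15 ± 0.30, adjusted p = 0.0451). Against Shank3 vehicle 0 of 28 passed, with a median of 0.22. At an unadjusted p under 0.05 stood 6 of 28 there, beside 1066 of all 18705 tested genes. The injury genes Lcn2, Steap4, Timp1, Cxcl10, C3 and Ptx3 were too low to be tested.

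Of 13 intermediate filament genes other than Gfap, 0 passed in Shank3 vehicle against wild type. At an unadjusted p under 0.05 stood 6 of 13, beside 2628 of all 18705 tested genes. Prph, a filament protein of peripheral neurons, rose with GSK-LSD1 against both Shank3 vehicle (2.82 ± 0.38, edgeR adjusted p = 0.00301) and wild type (3.51 ± 0.41, adjusted p = 0.000538). Vim, given above, rose and the neuronal filament Ina fell (-0.46 ± 0.12, adjusted p = 0.0451) with GSK-LSD1 against wild type. Of 7 measured S100 family genes other than S100b, S100a10 rose with GSK-LSD1 against wild type, and 0 passed in the other comparisons. Of 29 regulators of astrocyte development Id4, an inhibitor of DNA binding, rose in Shank3 vehicle (0.49 ± 0.11, adjusted p = 0.0444) and with GSK-LSD1 (0.48 ± 0.11, adjusted p = 0.0322) against wild type. Zbtb20, a zinc finger repressor, rose with GSK-LSD1 against wild type (0.66 ± 0.14, adjusted p = 0.0258).

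The calls in these wider lists stand beside the shares of all genes given above, and they were not stable. In Shank3 vehicle against wild type 0 genes of the lists named above passed without wild-type library 1, without Shank3 vehicle library 1, without Shank3 vehicle library 2, and, with all libraries kept, in the fit without robust estimation. Without wild-type library 1 only Prph passed in GSK-LSD1 against wild type. Where edgeR called 0, other tools could differ. In Shank3 vehicle against wild type DESeq2 called 1 higher and 1 lower in the glutamate cycle and 4 higher and 2 lower among end foot genes, and limma-voom called 0 in both. With GSK-LSD1 against wild type the end foot counts were 2 higher and 1 lower by DESeq2 and 1 higher by limma-voom. In GSK-LSD1 against Shank3 vehicle Prph was the only gene of these lists called by any of the 3 tools.

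Markers of other cell types also differed between the libraries. Summed over the list, the 10 astrocyte genes gave 6980 and 7357 CPM with GSK-LSD1, 6976 and 7259.9 CPM in Shank3 vehicle, and 5093 and 6279.7 CPM in wild type. The 14 oligodendrocyte markers gave 2519 and 5910 CPM with GSK-LSD1, 6211 and 6265 CPM in Shank3 vehicle, and 2734 and 2482 CPM in wild type. Of them 14 of 14 were positive in Shank3 vehicle against wild type, beside 9786 of all 18705 tested genes. By edgeR's test on all 6 libraries 0 of the 14 passed there, while DESeq2 called 1 and limma-voom 0. At an unadjusted p under 0.05 by edgeR stood 2 of 14, beside 2628 of all 18705 tested genes. In the fit of only the 4 libraries compared 12 of the 14 rose, as many as without GSK-LSD1 library 1 or without GSK-LSD1 library 2. In GSK-LSD1 library 1, whose oligodendrocyte sum was near that of wild type, the astrocyte sum was above both wild-type libraries and Gfap was the lowest of the 4 mutant libraries. The 10 excitatory neuron markers gave 4568 and 3976 CPM with GSK-LSD1, 4355 and 4492 CPM in Shank3 vehicle, and 5401 and 5092 CPM in wild type. Among these, Tbr1 and Nrgn fell with GSK-LSD1 against wild type. Gpr17, of oligodendrocyte precursors, Itgam, of microglia, and Rgs5 and Itm2a, of vessels, rose in Shank3 vehicle against wild type, each 1 or 2 genes of its list. Those lists were mostly positive there, beside 9786 of all 18705 tested genes. Positive were 9 of 10 oligodendrocyte precursor markers (median 0.46), 12 of 14 microglia markers (median 0.21) and 11 of 14 endothelial and pericyte markers (median 0.27). The precursor median was thus near the 0.44 of the astrocyte genes. Of 10 pan-neuronal markers Syn1 fell and 3 were positive, with a median of -0.03, and of 10 inhibitory neuron markers Reln fell and 7 were positive, with a median of 0.10. With GSK-LSD1 against wild type Syn1 and Syt1 (median of the pan-neuronal list -0.17) and Reln (median of the inhibitory list 0.02) fell. Kl, of the list of ependymal and choroid plexus markers, rose, at 8.06 ± 0.548 CPM with GSK-LSD1 and 3.16 ± 0.693 CPM in wild type (SD, 2 libraries each). Clic6, of the same list, also passed, but at 1.81 ± 1.96 CPM with GSK-LSD1 and with a wild-type mean of 0.0523 CPM, under the floor. That list summed to 12.5 and 28.3 CPM in GSK-LSD1 libraries 1 and 2, and to 10.8 and 9.86 CPM in the wild-type libraries. Microglia markers summed to 491 and 465 CPM with GSK-LSD1, 452 and 529 CPM in Shank3 vehicle, and 388 and 449 CPM in wild type. Endothelial and pericyte markers summed to 342 and 311 CPM with GSK-LSD1, 353 and 420.3 CPM in Shank3 vehicle, and 290.4 and 314 CPM in wild type. No marker of these lists was at 0 reads in all libraries. The part of cell makeup in the astrocyte values was not tested.

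**Figure D4:**
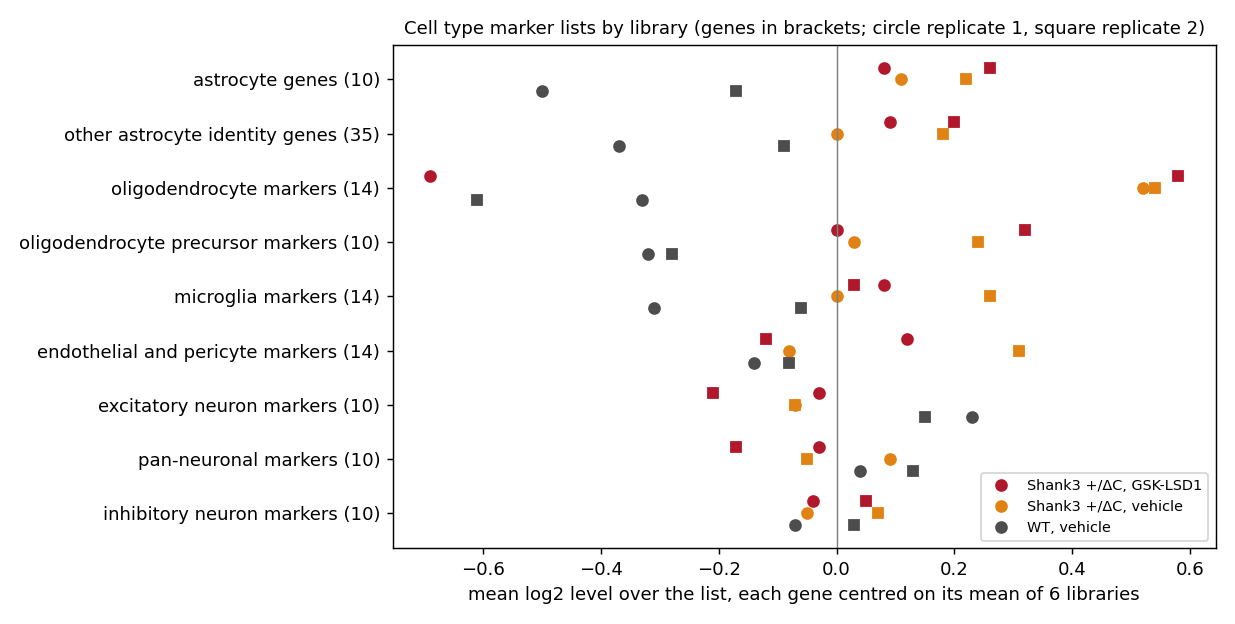
Mean log2 level of each marker list (horizontal axis), every gene centred on its mean over the 6 libraries, for the 6 libraries coloured by group. The astrocyte lists are lowest in the wild-type libraries, the oligodendrocyte list is low in wild type and in GSK-LSD1 library 1 (-0.69), and excitatory neuron markers are highest in wild type (0.23 and 0.15).

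Length and base composition were set beside the fold changes, since libraries can differ in how they sample long or GC-rich transcripts. Exonic lengths of the 10 ran from 1.48 kb for S100b to 13.13 kb for Slc1a2, with a median of 4.37 kb beside 3.79 kb over all annotated genes tested. Across the 10, the Spearman correlation of length with the log2 fold change was -0.10 in Shank3 vehicle against wild type and -0.14 in GSK-LSD1 against wild type, beside -0.16 and -0.20 over 18454 annotated genes. For GC content in GSK-LSD1 against Shank3 vehicle it was 0.76 across the 10 and 0.21 over all, a description across genes, which are not replicates. With each library's trend on length and GC removed, the median of the 10 in Shank3 vehicle against wild type was 0.44 and 1 of 10 (Gja1) passed, and in GSK-LSD1 against wild type 0.48 with 4 of 10.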

How the data were processed

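The 6 libraries were made from total RNA of prefrontal cortex, depleted of ribosomal RNA with a strand-marking kit, from biological duplicates, per the labels' protocols. The authors deposited raw read counts per gene symbol. Per the submitters' processing notes, cutadapt, TopHat2, SAMtools, featureCounts and edgeR were used with mm10 (GRCm38). Not given in the sources used here were versions, the annotation release and whether counting used strand. Whether reads of overlapping or antisense genes were told apart in the counting is therefore not known. In the files all 37 mitochondrial genes stood at 0, and 26 symbols had become dates (at most 0.298% of reads).

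From the counts, genes were filtered with filterByExpr, scaled by TMM and fitted with edgeR 4.0.16 (R 4.3.3) by a robust quasi-likelihood model of 3 groups (residual degrees of freedom 3, biological coefficient of variation 11.5%). P-values were two-sided and adjusted by Benjamini-Hochberg over 18705 genes. With 2 against 2 libraries an exact permutation test cannot go below 0.333, so none was run. Coordinates and exonic lengths came from GENCODE M21 (GRCm38). The scripts were tested on simulated data. The alternatives were other scalings and filters, DESeq2 1.42.0, limma-voom (limma 3.58.1), a non-robust fit, a replicate block, a length and GC offset, fits of 4 libraries and leaving out each library.

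Members and gene lists were chosen with earlier results of these data known. Named genes were the 10 members, list genes that passed or were among the 4 with the smallest p of their list, and the 5 genes most like the members. Of the list genes 1, Pc, was not analysed here. Some list genes that this rule names are not reported here.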

Additional observations from a re-analysis of the deposited data

How the results depend on the processing

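All 10 members kept positive log2 fold changes against wild type under all 17 alternatives in both comparisons, with medians of 0.35 to 0.56 in Shank3 vehicle and 0.38 to 0.64 with GSK-LSD1. The number that passed was less stable. In Shank3 vehicle against wild type 3 passed in the fit reported, 0 without robust estimation, 1 with the length and GC offset, and 0 to 4 when 1 library was left out. With GSK-LSD1 against wild type 4 passed, 8 without a filter on low counts, 7 with DESeq2, and 0 to 5 when 1 library was left out. Gja1 passed in 13 and 15 of the 17 alternatives in these comparisons. In GSK-LSD1 against Shank3 vehicle 0 passed under every alternative, leaving out each library included (0 to 0). With the replicate number as a block, 4, 7 and 0 passed in Shank3 vehicle against wild type, GSK-LSD1 against wild type and GSK-LSD1 against Shank3 vehicle. Slc1a3 was among those that passed with the block in both comparisons against wild type. Deviations of same-numbered libraries correlated at -0.08, -0.07 and 0.157 for these comparisons in that order. The average centred log2 level of the 10 members was nevertheless lower for replicate 1 than for replicate 2 within every group. Whether same-numbered libraries were handled together was not tested. Over all genes, calls in Shank3 vehicle against wild type ran from 1 (not robust) to 289 (no filter) higher and from 3 (without Shank3 vehicle library 1) to 518 (no filter) lower. With GSK-LSD1 against wild type they ran from 4 to 332 higher and 2 to 630 lower, both between the fit without wild-type library 1 and that without a filter. In GSK-LSD1 against Shank3 vehicle they ran from 8 to 88 higher and 1 to 49 lower. Beyond what leaving out libraries or genes implies, the cause was not tested. Every member had at least 388 counts in each library, and each group had 2 mice.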
